A study of Homo sapiens with 6 samples.

Results

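The homologous recombination and Fanconi repair genes are 41 genes whose proteins find broken or crosslinked DNA, process it and copy it back from an intact template. They were taken by symbol from the deposited expression table of mitotic ERRAS cells, using the row with the highest mean where a symbol was repeated, and all 41 were found among the 63009 genes read. They comprise 5 genes of end sensing and resection, 5 of the BRCA1 complex and BRCA2 loading, 7 genes that assist strand pairing and annealing, 2 RecQ helicases, 2 subunits of a structure-specific nuclease, 7 checkpoint signalling genes, 9 genes of the Fanconi core complex and its ubiquitin-conjugating enzyme, FANCD2, FANCI and FAN1, and the mismatch-recognition gene MSH6.

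ERRAS cells are IMR90 primary human lung fibroblasts that stably express oncogenic RasV12 fused to an estrogen receptor domain, so that tamoxifen switches the fusion protein on. Both groups carried the fusion, were kept at 3% oxygen with G418, and were arrested in mitosis with 1 µM dimethylenastron (DME), an inhibitor of the spindle motor Eg5, before the loose mitotic cells were collected. The induced group (3 libraries, ERRAS_4days-induced) had received tamoxifen for 4 days (100 nM by the labels, whereas the methods state the dose as a mass per volume) and the uninduced group (3 libraries, ERRAS_uninduced) had not. The comparison asks how transcript levels in cells caught in mitosis differ after tamoxifen has switched Ras on. No group received tamoxifen without carrying the fusion, so Ras activation and the drug itself cannot be told apart. The values are FPKM, fragments per kilobase of transcript scaled to sequencing depth, from oligo-dT libraries.

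Homologous recombination repairs a double-strand break by trimming its ends to single strands and then, with the help of BRCA1, PALB2 and BRCA2, pairing them with the sister chromatid. The Fanconi pathway unhooks crosslinks between the DNA strands: a core complex attaches ubiquitin to FANCD2 and FANCI, and recombination then rebuilds the broken arm of the fork. Many of these genes are transcribed as cells enter S phase, and fibroblasts that enter oncogene-induced senescence are known to pass through a phase of replication stress that engages ATR and ATM.

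The labels were checked first. HRAS, which includes any reads from the fusion transcript, stood at 1164 ± 20.3 FPKM in uninduced and 1586 ± 226.5 FPKM in induced libraries (SD, n = 3 each, log2 fold change 0.44, limma adjusted p = 0.0431, but 0.0925 after upper-quartile scaling). Because tamoxifen acts on the fusion protein, this level is not a direct check of induction. All 8 fibroblast markers were detected, and COL1A2, THY1 and DCN fell, with summed levels of 5537 to 6497 FPKM in uninduced and 3954 to 5313 in induced libraries. The 7 mitotic markers summed to 1537 to 1605 FPKM in uninduced and 1272 to 1409 in induced libraries, and PLK1, CENPF and TOP2A among them fell. Whether these shifts have a part in the repair-gene values was not tested. Endothelial markers summed to at most 0.0988 FPKM with PECAM1 at 0, immune markers to 25.2 to 35.7 FPKM, nearly all of it CD68, and epithelial markers to 16.97 to 32.8 FPKM, nearly all KRT5 and KRT14. FPKM hold no read counts and so do not give depth. The spacing of the lowest values put the libraries between 0.853 and 1.17 times the depth of the first uninduced library.

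Induction was accompanied by lower levels of a minority of the repair genes. BRIP1, MSH6, MDC1, FANCE, RBBP8, UBE2T and FANCI fell to between 39.7% and 77.1% of their uninduced FPKM, and no member rose. All 41 members had a mean of at least 1 FPKM and were tested with limma among 13993 genes. The 7 altered members, at an adjusted p of at most 0.05, are 17.1% of the list, where 16.7% of all tested genes were altered. The directions differ from that background: 17.1% of members against 5.67% of all tested genes were lower, and 0 members against 11.0% of all tested genes were higher. An unadjusted p under 0.05 was found for 17 members (41.5%, against 33.6% of all tested genes), of which 10 were not altered, 7 with negative and 3 with positive values. In bulk libraries, fewer cells with a transcript and less transcript per cell cannot be told apart.

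The members lay below the bulk of the transcriptome as a list. Their median log2 fold change was -0.16, where all tested genes had a median of 0.10, and 35 of the 41 members lay below that median. A negative value was found for 30 members (73.2%, against 37.3% of all tested genes). The uninduced and induced libraries did not overlap for 18 members. Of these, 15 were lower after induction (36.6%, against 12.8% of all tested genes) and 3, namely NBN, TP53BP1 and FANCF, were higher (7.32%, against 27.1%). The other 23 members overlapped between groups.

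The scale of the libraries changes these counts. Quantile normalization moved the median of all tested genes from 0.10 to 0.01 and upper-quartile scaling moved it to 0.00. Under either scaling 13 members were altered, all lower, because CHEK1, RAD51AP1, FANCD2, EXO1, WRN and FANCC joined the 7. All tested genes were then lower in 7.93% and 7.87% and higher in 7.46% and 6.58%, respectively. A negative value was found for 34 members under each scaling. The share of all tested genes with a negative value was not computed there, and the 37.3% given above holds for the deposited scale only. Single libraries matter as well: leaving out uninduced library 1, uninduced library 2, induced library 1 or induced library 3 left 3 altered members, BRIP1, MSH6 and MDC1, while leaving out uninduced library 3 left 6 and leaving out induced library 2 left 8. These 3 were altered in all 13 alternative settings tried.

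**Figure D1:**
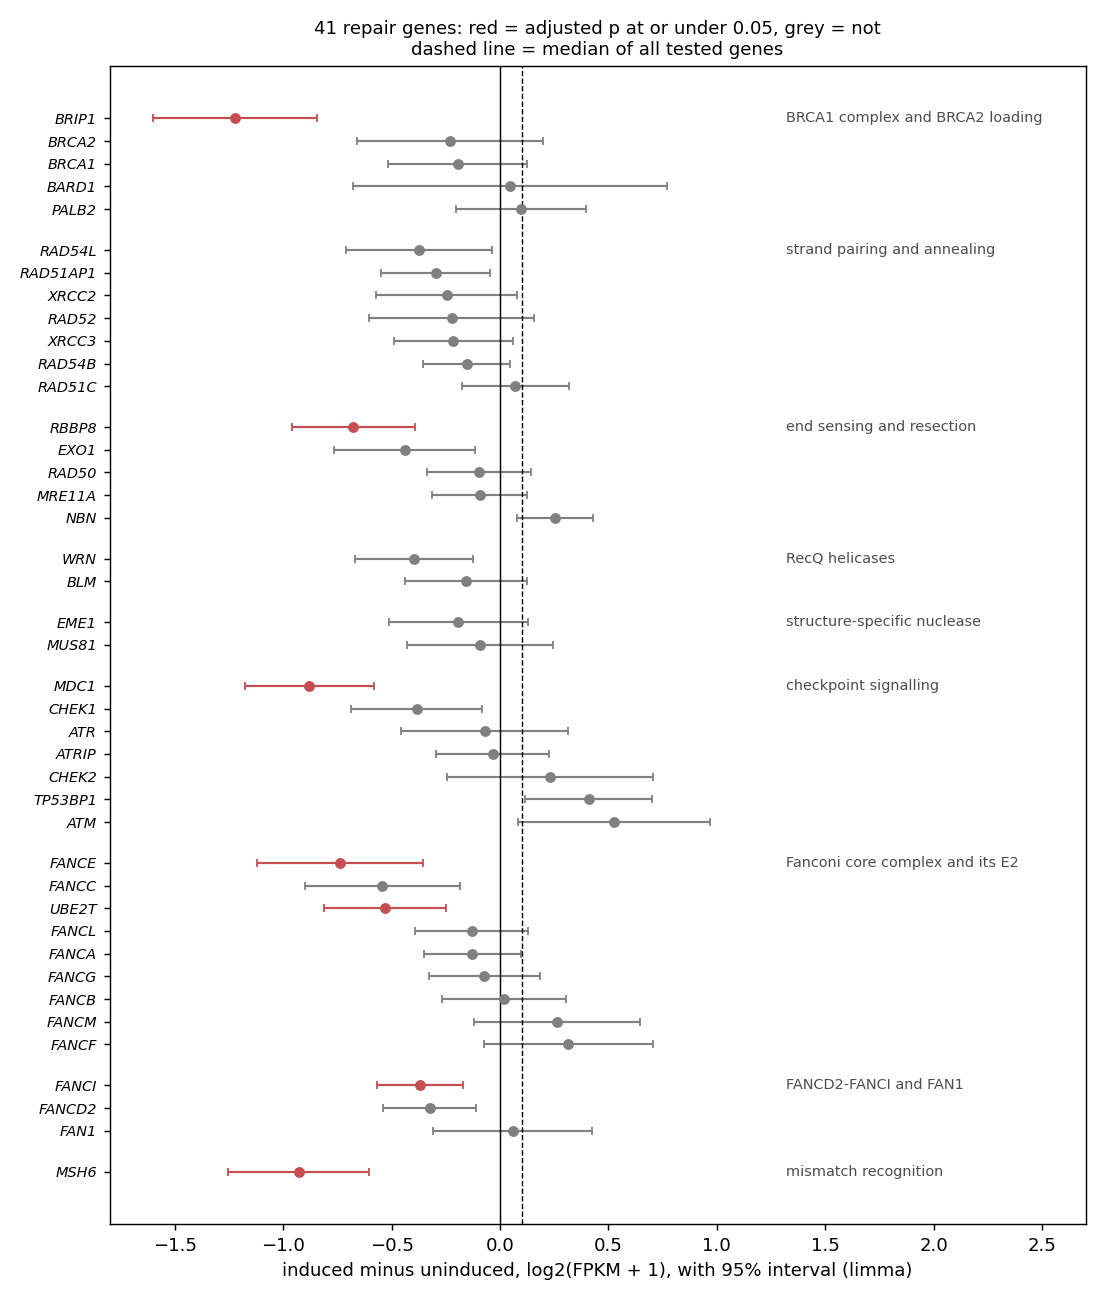
Log2 fold change of each of the 41 members, induced minus uninduced on the log2(FPKM + 1) scale, with its 95% limma interval, grouped by role. Red points mark the 7 members with an adjusted p of at most 0.05, all to the left of 0, and the dashed line marks the median of all tested genes at 0.10.

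The DNA before a RefSeq transcript start is shown for 6 of the 7 altered genes, all but FANCI, to show where the letters CCAAT, bound by the factor NF-Y at many cell-cycle genes, do and do not occur in it. RefSeq promoter windows (GRCh38.p14), which run from 250 bases before to 50 after the start, were on hand for 37 members. Where a gene has several windows, as RBBP8 (2) and MSH6 (4) do, the first listed is shown. The 150 bases before that start are printed 5′ to 3′ along the gene, placed on GRCh37 by exact match, and capitals mark CCAAT or its reverse complement ATTGG. GENCODE lists transcripts of some of these genes that start further upstream, so all 150 bases of RBBP8, MSH6 and MDC1, 48 of UBE2T and 31 of BRIP1 lie within the gene spans given beside the values.
BRIP1, chr17:59940890-59941039, minus strand: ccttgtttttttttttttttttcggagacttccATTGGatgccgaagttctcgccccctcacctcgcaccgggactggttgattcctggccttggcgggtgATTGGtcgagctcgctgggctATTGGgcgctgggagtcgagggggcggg
UBE2T, chr1:202311065-202311214, minus strand: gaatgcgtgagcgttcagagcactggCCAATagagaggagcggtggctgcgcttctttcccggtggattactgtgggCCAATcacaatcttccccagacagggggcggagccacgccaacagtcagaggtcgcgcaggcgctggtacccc
MSH6, chr2:48010134-48010283, plus strand: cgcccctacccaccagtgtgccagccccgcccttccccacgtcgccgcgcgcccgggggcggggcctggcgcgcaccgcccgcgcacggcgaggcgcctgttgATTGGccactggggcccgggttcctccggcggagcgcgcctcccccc
MDC1, chr6:30685059-30685208, minus strand: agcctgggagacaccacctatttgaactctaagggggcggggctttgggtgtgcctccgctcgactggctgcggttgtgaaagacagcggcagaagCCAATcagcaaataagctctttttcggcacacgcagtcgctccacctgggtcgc
RBBP8, chr18:20513141-20513290, plus strand: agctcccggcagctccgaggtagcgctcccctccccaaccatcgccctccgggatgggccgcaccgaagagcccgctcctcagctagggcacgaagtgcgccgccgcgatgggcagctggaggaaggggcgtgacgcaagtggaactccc
FANCE, chr6:35419965-35420114, plus strand: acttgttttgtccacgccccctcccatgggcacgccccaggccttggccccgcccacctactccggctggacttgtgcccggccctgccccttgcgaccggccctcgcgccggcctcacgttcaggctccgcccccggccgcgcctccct

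The printed stretch of BRIP1 holds 3 matches, that of UBE2T holds 2, those of MSH6 and MDC1 hold 1 each, and those of RBBP8 and FANCE hold 0. In the full windows CCAAT matched 4 of the 6 altered genes with a window and 16 of the other 31 members, where 39.7% of the 27305 genes in the promoter table had a match. An E2F site, searched as TTTCCCGC, TTTCGCGC, TTTGGCGC or TTTGCCGC on both strands, matched 1 altered gene, MSH6, and 5 others, against 3.99% of all genes. The cell-cycle homology region, searched as TTTGAA or TTCGAA on both strands, matched 3 altered genes, BRIP1, MDC1 and UBE2T, and 2 others, against 19.5% of all genes. A match describes letters in a window and not a bound site.

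Among the genes of end sensing and resection, RBBP8 fell. RBBP8 (CtIP; GRCh37 chromosome 18, 20378224 to 20606451, plus strand) starts resection together with the MRE11 nuclease. Its level was 14.3, 15.1 and 12.02 FPKM in the uninduced and 7.63, 9.15 and 7.91 FPKM in the induced libraries. The groups did not overlap, the induced mean of 8.23 ± 0.812 FPKM was 59.7% of the uninduced mean of 13.8 ± 1.58, and the log2 fold change was -0.68 (SE 0.12, adjusted p = 0.0142). It kept its call in 9 of the 13 alternatives.

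The subunits of the MRE11 complex, with which RBBP8 works, were not altered. MRE11A, the nuclease, stood at 18.3, 17.7 and 20.0 FPKM in uninduced and 18.0, 16.1 and 18.4 FPKM in induced libraries, a log2 fold change of -0.09 with a 95% interval of -0.31 to 0.13. RAD50, the bridging ATPase, had a log2 fold change of -0.10 (-0.34 to 0.14), although 76.9% of its exon bases are shared with an overlapping gene on the same strand. NBN, which recruits ATM to the complex, stood at 28.8, 28.9 and 28.3 FPKM in uninduced and 35.3, 32.4 and 35.5 FPKM in induced libraries. All 3 induced libraries thus lay above all 3 uninduced ones, but the log2 fold change of 0.25 (SE 0.07) had an adjusted p of 0.0616, and of 0.25 and 0.245 after quantile and upper-quartile scaling. The exonuclease EXO1, which extends resection, went from 10.1 ± 1.42 to 7.19 ± 0.908 FPKM without overlap (log2 fold change -0.44, adjusted p = 0.071).

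BRIP1 showed the largest change of the list. BRIP1 (FANCJ; GRCh37 chromosome 17, 59756500 to 59940920, minus strand) is a helicase that binds the BRCT repeats of BRCA1. Its level was 20.4, 22.1 and 15.5 FPKM in uninduced and 8.31, 8.22 and 6.50 FPKM in induced libraries, so the highest induced library lay well below the lowest uninduced one. The induced mean of 7.68 ± 1.02 FPKM was 39.7% of the uninduced mean of 19.4 ± 3.46, with a log2 fold change of -1.22 (SE 0.16, 95% interval -1.60 to -0.84, adjusted p = 0.00602). None of its exon bases is shared with another annotated gene.

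The other members of the BRCA1 group were not altered. BRCA1, the ubiquitin ligase that favors recombination, stood at 10.5, 9.37 and 11.3 FPKM in uninduced and 9.41, 10.1 and 7.41 FPKM in induced libraries, and its log2 fold change of -0.20 had an interval of -0.52 to 0.13. BARD1, the partner that stabilizes BRCA1, was scattered, from 1.07 to 2.03 FPKM in uninduced and from 0.893 to 2.87 in induced libraries. PALB2, which bridges BRCA1 to BRCA2, had a log2 fold change of 0.10 (-0.20 to 0.40). BRCA2, which acts at the resected ends, stood at 3.91, 3.99 and 5.28 against 2.81, 4.46 and 3.59 FPKM, with overlapping groups and an adjusted p of 0.41.

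None of the 7 genes that assist strand pairing and annealing passed the test, and 6 had negative values. The largest value belonged to RAD54L, a motor protein that acts during strand invasion, at 14.2, 13.4 and 14.9 FPKM in uninduced and 11.5, 12.4 and 8.56 FPKM in induced libraries. The groups did not overlap, and the log2 fold change was -0.37 (SE 0.14, adjusted p = 0.119). RAD51AP1, which stimulates strand pairing, also lay lower in every induced library, at 27.4, 29.2 and 24.0 FPKM against 33.1, 36.0 and 30.5 (log2 fold change -0.30, adjusted p = 0.101, and 0.0385 and 0.0381 after quantile and upper-quartile scaling). RAD54B was lower without overlap by a smaller amount (log2 fold change -0.15), but shares 66.0% of its exon bases with FSBP. The paralogs XRCC2 and XRCC3 and the annealing protein RAD52 lay between -0.25 and -0.22 with overlapping groups, and XRCC3 shares 76.7% of its exon bases with KLC1. RAD51C, a subunit of complexes with XRCC2 and with XRCC3, had the one positive value, 0.07 (interval -0.18 to 0.32).

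The helicases and nuclease that act on joined molecules did not pass the test. WRN, the helicase lost in Werner syndrome, stood at 8.40, 7.37 and 9.11 FPKM in uninduced and 6.52, 5.61 and 6.01 FPKM in induced libraries. The groups did not overlap, and the log2 fold change of -0.40 (SE 0.11) had an adjusted p of 0.0582, or 0.0293 after quantile normalization. BLM, which dissolves double Holliday junctions, had a log2 fold change of -0.16 with overlap. EME1, the partner of the nuclease MUS81, stood at 13.1, 13.9 and 13.6 against 9.57, 12.2 and 13.7 FPKM (log2 fold change -0.19), and MUS81 had -0.09.

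Among the checkpoint genes, MDC1 fell. MDC1 (GRCh37 chromosome 6, 30667584 to 30685224, minus strand) binds phosphorylated histone H2AX beside a break and gathers the other factors there. It stood at 38.2, 28.2 and 35.4 FPKM in uninduced and 18.8, 17.6 and 17.1 FPKM in induced libraries. The induced libraries lay within a narrow band, 17.9 ± 0.868 FPKM, at 52.6% of the uninduced mean of 33.9 ± 5.21, with a log2 fold change of -0.88 (SE 0.12, adjusted p = 0.00768). The symbol had 8 rows, of which the others were listed at 0, and 9.20% of its exon bases lie opposite MDC1-AS1. The library kit named in the labels does not mark strand, so reads from such opposite exons cannot be told apart.

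The remaining checkpoint genes had values of either sign, none of which passed the test. CHEK1, the effector of ATR, stood at 41.5, 45.4 and 38.4 FPKM in uninduced and 29.7, 37.7 and 28.4 FPKM in induced libraries, and every induced library was lower (log2 fold change -0.38, adjusted p = 0.0851, and 0.038 and 0.0398 after quantile and upper-quartile scaling). ATM, the kinase of the break response, stood at 3.25, 5.02 and 3.15 against 6.04, 6.61 and 4.94 FPKM, with groups that met at 1 library each and an adjusted p of 0.0998 (log2 fold change 0.53). TP53BP1, which holds ends back from resection, stood at 12.1, 12.04 and 14.4 against 19.5, 15.1 and 17.6 FPKM. Its groups did not overlap, but the log2 fold change of 0.41 (SE 0.12) had an adjusted p of 0.0666, and 28.8% of its exon bases lie opposite TUBGCP4. ATR, its partner ATRIP and the ATM effector CHEK2 had log2 fold changes of -0.07, -0.03 and 0.23 with overlapping groups.

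In the Fanconi core complex and its conjugating enzyme, FANCE and UBE2T fell. FANCE (GRCh37 chromosome 6, 35420115 to 35434881, plus strand) is the subunit that brings FANCD2 to the core complex. It stood at 6.36, 7.11 and 5.17 FPKM in uninduced and 2.82, 4.00 and 3.17 FPKM in induced libraries, 53.6% of the uninduced level (log2 fold change -0.74, SE 0.16, adjusted p = 0.0270). UBE2T (GRCh37 chromosome 1, 202300672 to 202311112, minus strand) supplies the ubiquitin that the core complex transfers. It stood at 100.1, 109.1 and 92.2 FPKM in uninduced and 62.2, 80.2 and 66.3 FPKM in induced libraries, 69.3% of the uninduced level (log2 fold change -0.53, SE 0.12, adjusted p = 0.0288). Neither gene's groups overlapped, neither shares exon bases with another gene, and each kept its call in 8 of the 13 alternatives.

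The other core subunits did not pass the test. FANCC, which with FANCE and FANCF forms one module of the complex, stood at 7.57, 6.92 and 7.19 FPKM in uninduced and 4.99, 5.52 and 3.61 FPKM in induced libraries, without overlap (log2 fold change -0.54, adjusted p = 0.0537, and 0.0389 and 0.0352 after quantile and upper-quartile scaling). FANCF, the adaptor of the same module and the member with the lowest uninduced mean, stood at 1.33, 1.48 and 1.22 against 1.62, 2.15 and 2.00 FPKM, higher without overlap (log2 fold change 0.31, adjusted p = 0.23). Within that module FANCE and FANCC thus lay lower and FANCF higher, and the FANCE value alone passed the test. FANCL, the ubiquitin ligase, and FANCA, FANCB and FANCG had log2 fold changes between -0.13 and 0.02, and FANCM, the translocase that anchors the complex to DNA, had 0.26, all with overlapping groups.

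Both genes of the pair that receives the ubiquitin lay lower by similar amounts, but FANCI alone passed the test. The FANCI call was kept in 8 of the 13 alternatives. FANCI (GRCh37 chromosome 15, 89787176 to 89860492, plus strand) stood at 48.0, 46.8 and 47.4 FPKM in uninduced and 34.4, 40.01 and 35.2 FPKM in induced libraries. The uninduced libraries were almost equal, 47.4 ± 0.575 FPKM, and the induced mean of 36.5 ± 3.04 was 77.1% of it (log2 fold change -0.37, SE 0.08, adjusted p = 0.0294). FANCD2 stood at 21.1, 24.9 and 24.3 against 18.2, 18.7 and 18.6 FPKM, without overlap (log2 fold change -0.32, SE 0.09, adjusted p = 0.0529, and 0.0306 and 0.0304 after quantile and upper-quartile scaling). FAN1, the nuclease that ubiquitinated FANCD2 recruits, had a log2 fold change of 0.06 with overlap.

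MSH6, which takes part in reading base mismatches, fell as well. MSH6 (GRCh37 chromosome 2, 47922669 to 48037202, plus strand) stood at 12.5, 16.8 and 15.7 FPKM in uninduced and 7.61, 7.99 and 6.49 FPKM in induced libraries. The induced mean of 7.36 ± 0.78 FPKM was 49.2% of the uninduced mean of 14.97 ± 2.22 (log2 fold change -0.93, SE 0.14, adjusted p = 0.00857). Its exons share 22.7% of their bases with FBXO11 on the opposite strand.

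**Figure D2:**
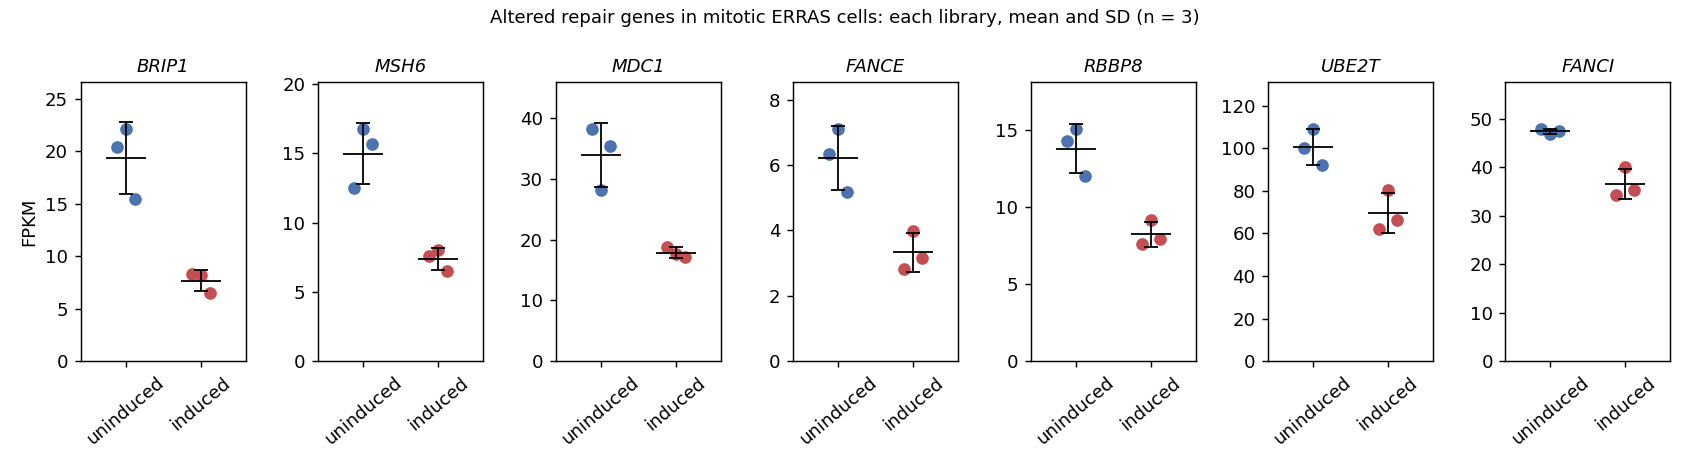
FPKM of the 7 altered members in each uninduced (blue) and induced (red) library, with the group mean and SD as black marks (n = 3) and each axis starting at 0. For each of the 7 genes all 3 induced points lie below all 3 uninduced points, from BRIP1 at 39.7% of its uninduced mean to FANCI at 77.1%.

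Ratios within a library, which do not depend on its scale, were taken for 6 pairs of genes. The ratio of BRIP1 to BRCA1 was 1.95, 2.36 and 1.37 in uninduced and 0.884, 0.813 and 0.877 in induced libraries. BRIP1 thus stood above BRCA1 in every uninduced library and below it in every induced one. That difference had an exact two-sided permutation p of 0.1, the smallest that 3 against 3 libraries allow, and 0.3 after Benjamini-Hochberg adjustment over the 6 pairs. The ratio of RAD51AP1 to RAD51C was 1.35, 1.56 and 1.39 against 1.28, 1.11 and 0.930, also without overlap (exact p = 0.1, adjusted 0.3).

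The other 4 ratios overlapped between the groups. FANCI to FANCD2 was 2.27, 1.88 and 1.95 in uninduced and 1.89, 2.14 and 1.90 in induced libraries (exact p = 0.7). RAD50 to MRE11A ran from 0.689 to 0.746 in uninduced and from 0.683 to 0.728 in induced libraries (exact p = 0.9). Both pairs are subunits of one complex, and their ratios varied little between libraries. CHEK1 to CHEK2 was 8.22, 9.13 and 6.01 against 4.55, 7.68 and 3.26 (exact p = 0.2), and BRCA1 to BARD1 was 5.15, 5.73 and 10.6 against 3.28, 6.82 and 8.30 (exact p = 0.7), the widest spread of the 6 pairs.

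**Figure D3:**
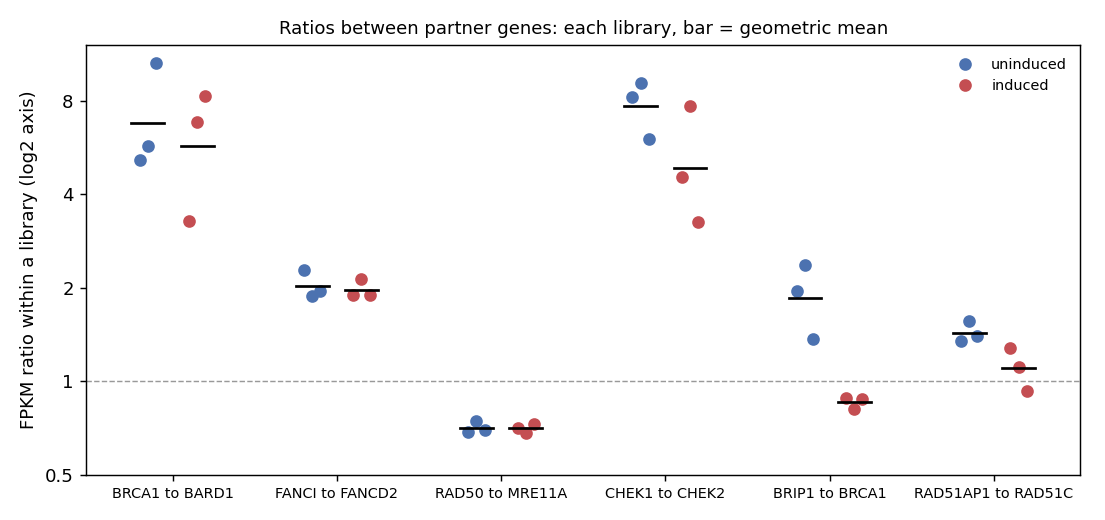
Ratio of FPKM between partner genes within each library, on a log2 axis, for uninduced (blue) and induced (red) libraries with the geometric mean as a bar. The groups separate for BRIP1 to BRCA1 and RAD51AP1 to RAD51C and overlap for the other 4 pairs.

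The members spanned a 74.7-fold range of uninduced level per length, from FANCF at 1.35 FPKM to UBE2T at 100.5 FPKM. UBE2T, FANCI, CHEK1 and MUS81 were among 7 members over 30 FPKM, while 16 members lay under 10 FPKM, and the 5 most abundant held 37.9% of the summed level. The sum over all 41 was 690, 710 and 671 FPKM in uninduced and 556, 596 and 558 FPKM in induced libraries. The median coefficient of variation was 10.4% in uninduced and 10.6% in induced libraries. BARD1 varied most, at 30.6% and 58.0%, whereas NBN varied by 1.18% among uninduced and FANCD2 by 1.47% among induced libraries. Induced library 2 held the highest of the 3 induced values for 21 of the 41 members, and induced libraries 1 and 3 for 10 each.

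Among the neighbors of these genes, the altered share was 16.1% for other recombination genes, 20.0% for other Fanconi genes, 9.52% for other checkpoint genes and 15.4% for end joining, beside 16.7% of all tested genes (11.0% higher and 5.67% lower). Of 32 other recombination genes 31 were tested, DMC1 having a mean under 1 FPKM, and 5 fell and 0 rose. The median log2 fold change of those tested was -0.03, and -0.14 and -0.13 after quantile and upper-quartile scaling. GEN1, a Holliday junction resolvase, and RMI1, a partner of BLM, fell by 0.78 and 0.54 on the log2 scale. These calls rest on few libraries: 0 genes of the list were altered without uninduced library 1, 1 without uninduced library 2 or induced library 1, 2 without induced library 3 and 3 without induced library 2.

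Among 15 other Fanconi genes 2 rose and 1 fell, with a median log2 fold change of -0.05. After either rescaling 2 were lower and 1 was higher, with medians of -0.14 (quantile) and -0.15 (upper-quartile). ERCC1, a subunit of the nuclease that incises crosslinks, rose from 76.5 ± 4.30 to 139 ± 12.6 FPKM (log2 fold change 0.86, adjusted p = 0.00378) in all 13 alternatives. APITD1, a histone-fold partner of FANCM, rose by 0.40, with an adjusted p of 0.0959 and 0.0878 after quantile and upper-quartile scaling. USP1, which removes ubiquitin from FANCD2 and FANCI, fell by 0.55 on the log2 scale (adjusted p = 0.0144). Without uninduced library 1, uninduced library 2, induced library 1 or induced library 3, only 1 gene of this list was altered, ERCC1. Of 21 other checkpoint genes CLSPN, the CHEK1 mediator, and CDC25A, the phosphatase that CHEK1 restrains, fell by 0.57 and 0.56, and 0 rose. The median of the 21 genes was -0.06, and -0.16 after either rescaling. A total of 5 were lower after either rescaling, but 0 were altered without uninduced library 2 and 1 without any other single library.

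End joining, the competing route of break repair, had a median log2 fold change of 0.11 over 13 genes. After quantile and upper-quartile scaling it was 0.03 and 0.0007. The median of all tested genes was 0.10 in the deposited scale and 0.01 and 0.00 after those scalings. The 2 altered genes of the list were XRCC1 and PARP1, and no other gene of it was altered. XRCC1, a scaffold of single-strand break repair, rose by 0.31 on the log2 scale, with an adjusted p of 0.0935 and 0.104 after quantile and upper-quartile scaling. PARP1, the sensor of strand breaks, fell, with a log2 fold change of -0.47 (adjusted p = 0.0452), a call that was lost when any 1 of the 6 libraries was left out. In the whole list 1 gene was altered without uninduced library 3 and 0 without any other. Origin licensing and replication genes showed the most calls of any list examined. Of those tested 58.8% were altered and 55.9% were lower, beside 16.7% and 5.67% of all tested genes. Of 34 tested (CCNE2 had a mean under 1 FPKM), 19 fell and 1 rose, with a median of -0.55 and summed levels of 1404 to 1505 FPKM in uninduced and 890 to 1091 FPKM in induced libraries. Without uninduced library 2, induced library 1 or induced library 3 the altered genes numbered 10, and without uninduced library 1 they numbered 12. TYMS, the thymidylate synthase, changed most at -1.67 on the log2 scale, with the helicase subunits MCM3 and MCM6 at -1.30 and -1.26, and FEN1 had 0.29 (adjusted p = 0.033, but 0.111 and 0.118 after quantile and upper-quartile scaling). Whether the repair genes' values depend on those of the replication genes was not tested.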

How the data were processed

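RNA-seq was made from 6 libraries of mitotic ERRAS cells, 3 uninduced and 3 induced. Per the submitters' processing notes, reads were trimmed with Trim Galore 0.3.0 and aligned to hg19 with TopHat2, and the authors deposited Cufflinks FPKM values per library. Columns name the group but not the sample, so libraries were replicates of their group. The methods describe independent repeats, but the labels do not name separate cultures, so p-values measure the spread of these libraries only. Of 63129 listed genes, 120 with more than 6 values were dropped, as was 1 second header line. A further 18 unnamed columns were not used as libraries. A second deposited file, the authors' cuffdiff comparison (group FPKM, fold changes, p and q values), was not used. Some genes are not reported here.

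The test was limma 3.58.1 (R 4.3.3, eBayes with trend set) applied to log2(FPKM + 1). It was two-sided, covered the 13993 genes whose mean reached 1 FPKM, and all p-values were adjusted together by the Benjamini-Hochberg method. A fold change on this scale understates that of low genes. The 13 alternatives were a pseudocount of 0.1, a filter at 0.1 FPKM, no filter, quantile and upper-quartile scaling, no variance trend, a replicate block and leaving out each library. Exon overlaps are from GENCODE 44 lifted to GRCh37. Tables and figures used Python 3.11.15, pandas 2.3.3, numpy 2.4.6 and matplotlib 3.10.9. The members and lists were chosen with earlier results of these data known. Named were all altered members, the largest value of each role, unaltered partners, and up to 3 altered genes in each direction from each other list.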

Additional observations from a re-analysis of the deposited data

How the results depend on the processing

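Across 13 alternatives and 41 members, 499 of 533 values kept their side of the threshold, 19 lost the call and 15 gained it, and none changed direction while called. Quantile normalization and upper-quartile scaling each gave 13 altered members, all lower, with medians of -0.25 and -0.26. A pseudocount of 0.1 gave 8, a filter at a mean of 0.1 FPKM gave 7, no variance trend gave 7 and no filter gave 5, when FANCE (adjusted p = 0.0715) and UBE2T (0.0681) were lost. Leaving out 1 library gave 3 to 8 altered members, 3 to 8 of them lower, and medians of -0.19 to -0.13. The cause of these shifts was not tested.

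With the replicate number as a block 8 members were altered, CHEK1 being added (adjusted p = 0.0407). Of the other lists, 4 other checkpoint genes and 6 p53 targets were altered with the block. Deviations from the group mean had correlations of -0.003, 0.043 and 0.048 between same-numbered libraries. Between differently numbered libraries they ran from -0.068 to 0.031. With 3 libraries a group, these values cannot show whether the numbers pair the libraries. The FPKM values do not give the depth of the libraries, and 3 libraries a group limit what can be called. The alignment statistics that the paper refers to were not used.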

Other observations

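Among the regulators of S-phase genes 44.4% were altered, beside 16.7% of all tested genes. Of 19 E2F and DREAM regulators 18 were tested, E2F2 having a mean under 1 FPKM, and 5 fell and 3 rose, with a median log2 fold change of -0.13. After either rescaling 7 were lower and 1 was higher. Without uninduced library 1 or 2 the altered genes numbered 3, and without induced library 1 or 3 they numbered 2. MYBL2, the activator of the MuvB complex, fell from 51.1 ± 6.25 to 12.95 ± 3.93 FPKM (log2 fold change -1.93, limma adjusted p = 0.00338). E2F8, a repressor, and E2F5 fell by 1.16 and 0.81. E2F6, a repressor, rose by 0.71 on the log2 scale (adjusted p = 0.0125), while E2F7 and E2F4, at 0.65 and 0.33, had adjusted p values of 0.0568 and 0.104 after quantile normalization and 0.0691 and 0.120 after upper-quartile scaling.

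Of 18 listed p53 targets 17 were in the table and 15 were tested. In the deposited scale 3 rose and 0 fell (20.0% altered, beside 16.7% of all tested genes, 11.0% higher), with a median log2 fold change of 0.25. Only 1 was altered with no filter, with a filter at 0.1 FPKM, with no variance trend, or without induced library 1, induced library 3 or any 1 uninduced library. PLK3, a stress-responsive kinase, rose from 6.11 ± 1.17 to 16.1 ± 1.30 FPKM in all 13 alternatives. CDKN1A, which encodes the p21 inhibitor of cyclin-dependent kinases, stood at 4.58, 3.91 and 5.54 FPKM in uninduced and 31.0, 8.24 and 14.6 FPKM in induced libraries (log2 fold change 1.56, adjusted p = 0.0496, and 0.0576 and 0.0671 after quantile and upper-quartile scaling). XPC, a sensor of damaged bases, had a log2 fold change of 0.73 (adjusted p = 0.0449, and 0.0686 and 0.0837 after the same scalings). FAS, the death receptor, which is named because its call depends on the scale, had a log2 fold change of -0.81 with an adjusted p of 0.055, and of 0.045 and 0.0505 after those scalings, so that after quantile normalization 1 target was lower and PLK3 was the target that remained higher.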
